A study of Homo sapiens with 10 samples.

Results

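MYC, MAX and their relatives form a network of basic helix-loop-helix leucine zipper transcription factors, and this account covers the RNA levels of 9 of its genes in human liver cancer cells. The members are the activators MYC and MYCN, their shared partner MAX, the antagonists MXD1, MXD3, MXD4, MXI1 and MNT, and the MAX-binding scaffold MGA. They were taken by gene symbol, and all 9 were found among the 20030 rows of the deposited expression table. RNA was sequenced from the established liver cancer lines Huh7, PLC and 97H, named here as in the labels, in 10 libraries. Vehicle-treated control and a CDK4/6 inhibitor were each measured in all 3 lines, while an XPO1 inhibitor, named KPT330 in the sample titles, and the combination of both inhibitors were measured in PLC and 97H only. Each line and treatment is 1 library, so the line serves as the replicate, and no genetic alteration of the cells is given. The labels give no name for the CDK4/6 inhibitor, no dose and no time. Each line is 1 line in culture, and a difference between lines is a difference between these libraries.

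MYC and MYCN bind DNA as heterodimers with MAX at the E-box and raise the transcription of genes for ribosome production, nucleotide synthesis and metabolism. The MXD proteins and MNT compete for MAX and recruit SIN3 and histone deacetylases to the same sites, so the balance of MYC to antagonists sets the output of shared targets. MXD genes are best known for their expression as cells leave the cycle and differentiate, MXD3 is the exception that is expressed in S phase, and MYC is frequently gained or overexpressed in liver cancer. CDK4 and CDK6 phosphorylate the RB protein to let cells enter S phase, and XPO1 is the main export receptor of the nuclear pore.

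In GRCh38 (GENCODE 29) MYCN lies at chr2:15940564-15947007, MXD1 at chr2:69897688-69942945, MXD4 at chr4:2247432-2262294, MXD3 at chr5:177301461-177312757, MXI1 at chr10:110207605-110287365, MAX at chr14:65006174-65102695, MGA at chr15:41621224-41773081 and MNT at chr17:2384060-2401118. RefSeq promoters (GRCh38.p14) were matched for 8 members, 13 promoters in all, and that of MYC was not used here. The 250 bases before each start were searched on both strands for the E-box bound by MYC and MAX (CACGTG, which reads the same on both strands), the E2F core (GCGGGAA) and the cell-cycle homology region (TTTGAA), motifs that do not overlap one another. An E-box was present in 2 of the 13, those of MXD4 (238 bases before the start) and MNT (193 bases before the start), against 6.3% of 35116 promoters in the table. The E2F core was in 0 of 13 (5.5% of all promoters). The cell-cycle homology region was in 2, of MGA and MYCN (13.3% of all promoters). These matches describe letters and not binding. The promoter stretches with a match that lie outside the annotated gene are shown because MXD4, MNT and MYCN are members whose levels are described in detail. They read from 5′ to 3′ on the strand of the gene, with the motif in capitals (for MYCN the reverse complement of the searched letters).
MXD4 promoter, chr4:2262295-2262359, minus strand: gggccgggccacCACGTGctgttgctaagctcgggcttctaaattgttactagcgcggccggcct
MNT promoter, chr17:2401119-2401310, minus strand: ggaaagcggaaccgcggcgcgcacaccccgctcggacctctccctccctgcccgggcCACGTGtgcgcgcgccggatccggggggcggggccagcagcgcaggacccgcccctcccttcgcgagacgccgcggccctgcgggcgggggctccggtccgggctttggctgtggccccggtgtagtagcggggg
MYCN promoter, chr2:15940300-15940549, plus strand: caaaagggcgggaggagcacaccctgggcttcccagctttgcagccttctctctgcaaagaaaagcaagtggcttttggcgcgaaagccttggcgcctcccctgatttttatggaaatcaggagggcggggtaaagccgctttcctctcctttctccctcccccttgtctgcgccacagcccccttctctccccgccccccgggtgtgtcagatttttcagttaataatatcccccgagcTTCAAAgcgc

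Values are FPKM, which counts sequenced fragments per transcript length and per library total, as the authors deposited them. FPKM is relative to the library total, so RNA per cell was not measured, and in bulk libraries fewer expressing cells cannot be told apart from less RNA per cell. Absolute depth is unknown. Relative to the PLC combination library the depth was estimated at 0.871 to 1.149, from 5.34% to 15.97% of weakly expressed genes. Each library had 14033 to 15264 genes above 0. The 10 liver markers summed to 2919 to 10810 FPKM per library. In 97H this sum was mostly the keratins KRT8 and KRT18, at 2112.5 and 785.4 FPKM in its control. In that line TTR was at 0.579 to 4.32 FPKM, and APOB and FGB were under 1 FPKM in every library. The leukocyte marker PTPRC was at 0 to 0.0226 FPKM throughout. Of the other immune markers CD68 was at 2.77 to 126.6 FPKM. Of the stromal markers COL1A2 reached 77.8 FPKM in Huh7, and LUM reached 40.8 in Huh7 and 26.0 in 97H. The part of these genes in the results was not tested. Across 10448 genes, the difference from the control of the same line followed the GC content of the transcript, with opposite signs in PLC and 97H: Spearman rho for the CDK4/6 inhibitor was -0.667 and 0.72, for the XPO1 inhibitor -0.708 and 0.464, and for the combination -0.284 and 0.255. In Huh7 it was 0.181. The values of a line share its control library. Member transcripts span this range, from 42.0% GC in MGA, 42.7% in MXD1 and 43.7% in MXI1 to 57.6% in MXD4, 61.3% in MXD3 and 61.4% in MNT. Differences are also given with the trends in GC content and length removed.

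MYC and MXD4 had the highest mean levels in untreated cells, but the order differed by line. In the 97H control MXD4, at 3.10 FPKM, was below MAX (11.5), MXD1 (8.66) and MNT (3.17). In the Huh7 control MXD4 (25.3) was above MYC (18.0). Mean control levels over the 3 lines were 35.1 ± 16.7 FPKM for MYC (SD, n = 3), 19.1 ± 13.9 for MXD4, 9.498 ± 2.139 for MAX, 7.12 ± 5.08 for MXD3 and 5.01 ± 3.81 for MXD1. They were 4.02 ± 6.79 for MYCN, 3.56 ± 2.19 for MNT, 3.04 ± 1.04 for MXI1 and 0.796 ± 0.599 for MGA. Each step down in this order was smaller than the larger SD of the pair, except that from MXI1 to MGA, and MXI1 was above MGA in each of the 10 libraries. MAX had the narrowest span by ratio, 7.25 to 15.2 FPKM, and MXD4 the widest among members detected in every library, 3.10 to 69.0 FPKM.

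**Figure D1:**
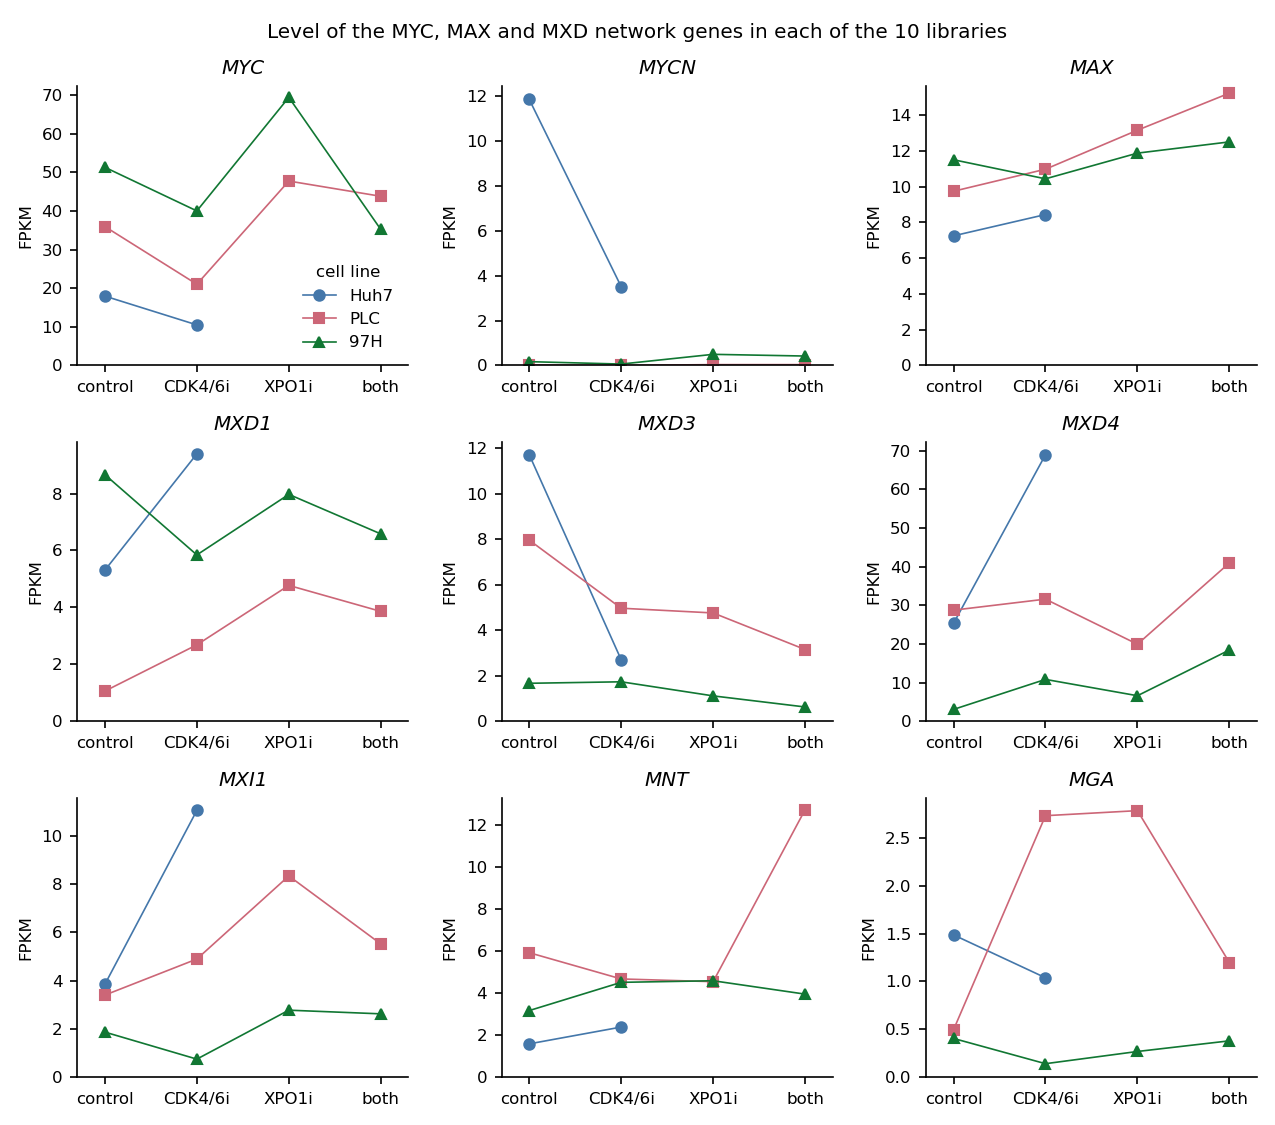
FPKM (vertical axes, linear from 0, scaled per gene) of each member in the 10 libraries, by treatment (CDK4/6i, CDK4/6 inhibitor; XPO1i, XPO1 inhibitor; both, combination) and joined within a line for tracking only. MYC was lower with the CDK4/6 inhibitor than in the control of each line, MXD4 was higher, and MYCN was above 1 FPKM only in Huh7.

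With the CDK4/6 inhibitor, MYC was at a lower level and MXD4 at a higher level in each of the 3 lines, but no member passed the adjusted threshold (adjusted p under 0.05, limma with Benjamini-Hochberg over 10477 genes), and 0% of all tested genes did. The unadjusted p was under 0.05 for 3 of 9 members, MXD4, MXD3 and MYC, against 8.8% of all genes. MXD4 alone was higher in every line by any amount (12.9% of all genes), and MYC was lower in every line (10.3% of all genes). MYCN, close to 0 in PLC and 97H, is not counted here. The median of all tested genes was 0.03 on the log2 scale.

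MYC was at 18.0 FPKM in the Huh7 control and 10.5 with the CDK4/6 inhibitor, at 36.0 and 21.0 in PLC, and at 51.3 and 40.0 in 97H. The treated library was the lower one in all 3 lines, while across lines the controls (18.0 to 51.3) and the treated libraries (10.5 to 40.0) overlapped. On the scale of log2(FPKM + 1), on which all differences below are given, the difference was -0.61 (SE 0.26, limma, unadjusted p = 0.0416, adjusted p = 0.549, n = 3 lines). Within the lines it was -0.72, -0.75 and -0.35 in Huh7, PLC and 97H, and -0.71, -0.34 and -0.57 with the trends in GC content and length removed. Leaving out any 1 library gave -0.81 to -0.45.

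MXD4, whose protein represses MYC targets in resting and differentiating cells, stood at 25.3 FPKM in the Huh7 control and 69.0 with the CDK4/6 inhibitor. In PLC it was at 28.8 and 31.6, and in 97H at 3.10 and 10.9. The step was 2.72-fold in Huh7 and 3.50-fold in 97H but only 1.10-fold in PLC. The fitted difference was 1.02 (SE 0.34, unadjusted p = 0.0129, adjusted p = 0.492, limma). With the GC content and length trends removed the lines came to 1.26, 0.64 and 1.16 in Huh7, PLC and 97H, so the PLC value was larger than the 0.13 found without that step.

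MXD3 was at 11.7 FPKM in the Huh7 control and 2.71 with the CDK4/6 inhibitor, the lowest ratio of any member detected in all lines (0.231). It was at 7.97 and 4.97 in PLC and at 1.67 and 1.74 in 97H. The fitted difference was -0.78 (SE 0.34, unadjusted p = 0.0449, adjusted p = 0.559, limma), and it was -0.28 without the Huh7 control or the Huh7 treated library. After removal of the trends Huh7 stayed low at -1.82, while PLC moved from -0.59 to 0.14 and 97H from 0.04 to -0.41. MXD3 shares sequence of its locus with RAB24 on the same strand and PRELID1 on the opposite strand, and PRELID1 was at 118 to 569 FPKM. In control and CDK4/6 inhibitor libraries PRELID1 was at 249 and 147 FPKM in Huh7, 569 and 426 in PLC, and 153 and 141 in 97H. RAB24 was at 17.1 and 16.8, 43.0 and 30.1, and 11.5 and 14.0 in the same order. Whether counting used strand is not given in the sources used here, so reads of these neighbours cannot be told apart from those of MXD3.

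MYCN, the paralog expressed mainly in embryonic and neuroendocrine tissue, was confined to Huh7 at levels above 1 FPKM. It was at 11.9 FPKM in the control and 3.51 with the CDK4/6 inhibitor there. In PLC it was listed at 0.0200, 0, 0.0358 and 0.0357 FPKM in control, CDK4/6 inhibitor, XPO1 inhibitor and combination, and in 97H at 0.168, 0.0602, 0.494 and 0.418. MYCN passed the filter on low values only through Huh7. The fitted difference of -0.56 (SE 0.29, adjusted p = 0.613, limma) averages -1.51 in Huh7 with -0.03 and -0.14 in lines where the gene was close to 0. Its antisense neighbour MYCNOS was at 0.189 FPKM in the Huh7 control and 0 in the treated library.

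The other antagonists did not move in 1 direction. MXI1, which binds MAX and the SIN3 corepressor, was at 3.85 FPKM in the Huh7 control and 11.0 with the CDK4/6 inhibitor, at 3.41 and 4.90 in PLC, and at 1.88 and 0.757 in 97H. MXD1, the founding MXD gene and a marker of terminal differentiation, was at 5.31 and 9.39 in Huh7, at 1.06 and 2.69 in PLC, and at 8.66 and 5.84 in 97H. For both genes Huh7 and PLC were higher and 97H lower with the inhibitor. The gap between the PLC and 97H differences was 1.33 for MXD1 and 1.13 for MXI1, and 0.27 and 0.21 after removal of the trends. MGA, the scaffold of the polycomb complex PRC1.6, had the widest gap, 1.62, which became 0.55, and its levels were 1.49 and 1.04 FPKM in Huh7, 0.496 and 2.73 in PLC, and 0.406 and 0.143 in 97H. MNT, a broadly expressed antagonist, was at 1.59 and 2.39 in Huh7, 5.92 and 4.68 in PLC, and 3.17 and 4.51 in 97H. MAX stayed within 1.16-fold of control in Huh7 and within 1.13-fold in PLC, and was at 11.5 and 10.4 FPKM in 97H. None of these genes had an unadjusted p under 0.05. Their 95% intervals were -0.46 to 0.61 for MAX, -0.58 to 0.91 for MNT, -0.44 to 1.14 for MXD1, -0.47 to 1.15 for MXI1 and -0.50 to 0.99 for MGA. Over all 9 members the size of the gap between PLC and 97H had a median of 0.69. It was smaller after removal of the trends for 7 of 9 (median 0.52), though that of MNT went from -0.69 to 0.41 and that of MXD3 from -0.62 to 0.555. With the XPO1 inhibitor the gap was smaller for 5 of 9 and with the combination for 6 of 9. With the combination that of MYC widened from 0.81 to 1.08. The share of all genes with a smaller gap was not computed, so these counts have no background.

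**Figure D2:**
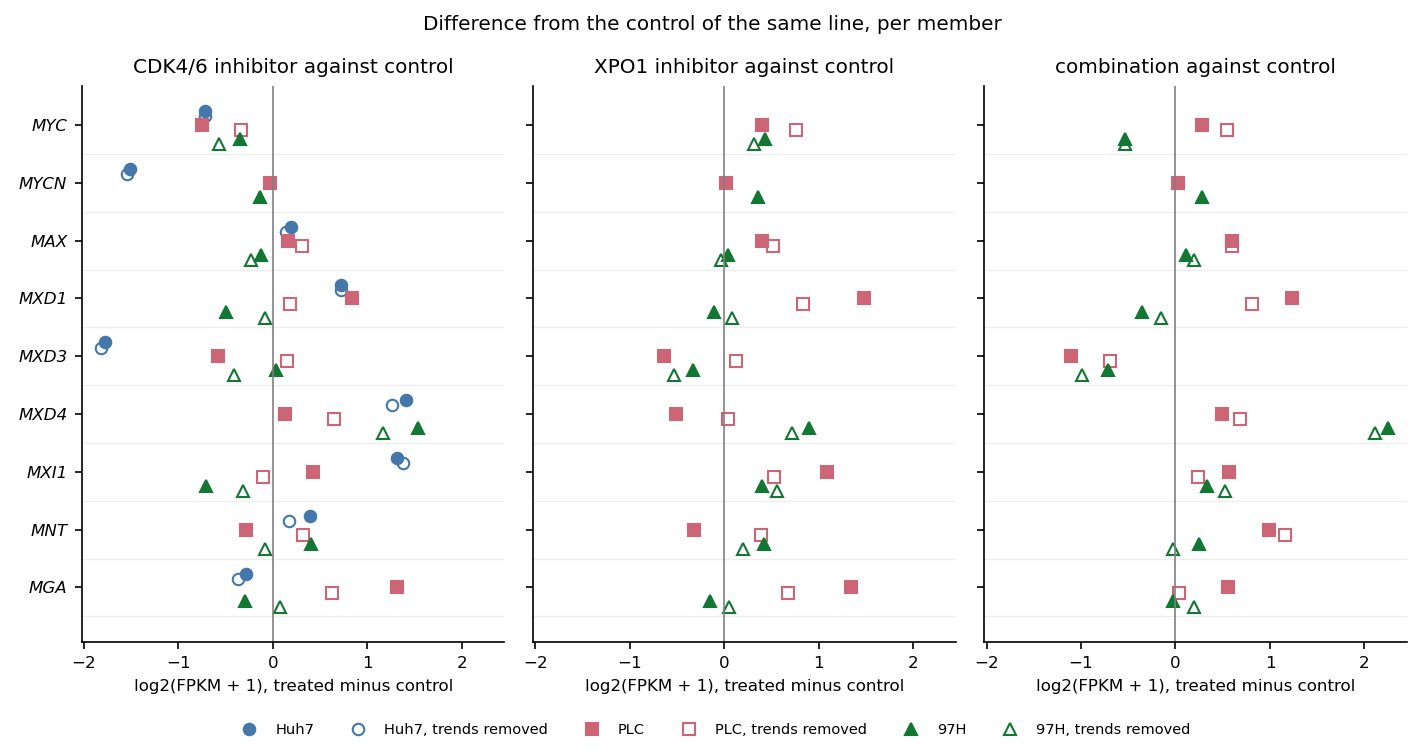
Difference of log2(FPKM + 1) from the control of the same line (horizontal axes) for each member, in 3 panels by treatment. Filled symbols are values as deposited and open symbols those with the trends in GC content and length removed (not drawn for MYCN in PLC and 97H, where it is near 0). MXD4 lay to the right of 0 in all lines with the CDK4/6 inhibitor and with the combination, and the PLC and 97H symbols of MXD1 and MGA drew closer once the trends were removed.

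With the XPO1 inhibitor, MYC was higher by a similar ratio in both lines in the values as deposited, but no member passed the test and none had an unadjusted p under 0.05. Of all tested genes 0% passed the adjusted threshold and 2.46% had an unadjusted p under 0.05. MYC was at 47.8 FPKM in PLC against 36.0 in the control, and at 69.4 in 97H against 51.3. These are 1.33-fold and 1.35-fold steps, and the 97H value was the highest of the 10 libraries. The fitted difference was 0.41 (SE 0.34, adjusted p = 0.968, limma, n = 2 lines), and the within-line values of 0.40 and 0.43 became 0.76 and 0.31 with the trends removed. In the values as deposited, of the 8 members other than MYCN, MAX, MXI1 and MYC were higher in both lines (21.7% of all genes were). MXD3 was lower in both (16.8% of all genes). With the trends removed, MXD3 in PLC and MAX in 97H changed sign.

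MXI1 was at 8.34 FPKM in PLC with the XPO1 inhibitor and at 2.78 in 97H, above the controls of 3.41 and 1.88. The fitted difference was 0.74 (SE 0.41, adjusted p = 0.968, limma), and the lines stood at 0.53 and 0.56 with the trends removed. MXD3 was at 4.76 in PLC and 1.12 in 97H, below the controls of 7.97 and 1.67. Its differences of -0.64 in PLC and -0.33 in 97H were 0.13 and -0.53 with the trends removed. MXD1 was at 4.78 in PLC, 4.49-fold its control, and at 7.97 in 97H, below its control of 8.66. MGA likewise was at 2.78 in PLC and 0.270 in 97H. MNT was at 4.55 in PLC and 4.59 in 97H. Removal of the trends took MXD1 from 1.48 in PLC and -0.11 in 97H to 0.84 and 0.08. It took MGA from 1.34 and -0.15 to 0.68 and 0.05, and MNT from -0.32 and 0.42 to 0.39 and 0.20. MAX was at 13.2 and 11.9, and its difference was 0.22 with a 95% interval of -0.55 to 0.99.

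MXD4 differed in direction between the lines with the XPO1 inhibitor. It was at 20.0 FPKM in PLC, below the control of 28.8, and at 6.64 in 97H, above the control of 3.10. The within-line differences were -0.51 and 0.90, each from 1 pair of libraries and not tested against each other. After removal of the trends they were 0.04 and 0.72. The fitted mean was 0.20 (SE 0.45, limma), and it ran from -0.56 without the 97H control to 0.955 without the PLC control.

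With the combination, MXD4 was higher and MXD3 lower than control in both lines, and again no member passed the adjusted threshold, which 0.792% of tested genes did (83 genes). An unadjusted p under 0.05 was found for these 2 of 9 members and for 12.4% of all genes. In the values as deposited, of the 8 members other than MYCN, MAX, MNT, MXD4 and MXI1 were higher in both lines (29.6% of all genes were). With the trends removed MNT in 97H was at -0.02. MXD3 was lower in both (24.2% of all genes).

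MXD4 was at 41.0 FPKM in PLC against 28.8 in the control, and at 18.5 in 97H against 3.10. The combination library was the highest of its line in both, 1.425-fold and 5.955-fold the control. The fitted difference was 1.37 (SE 0.45, unadjusted p = 0.0134, adjusted p = 0.235, limma, n = 2 lines). With the GC content and length trends removed it was 1.40 and passed (adjusted p = 0.0483, limma), the only alternative in which a member was called between treatments, and the lines were at 0.68 and 2.11. Over all alternatives the adjusted p ran from 0.0483 to 1, and the difference was 0.61 without the 97H control and 2.13 without the PLC control.

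MXD3 was at 3.16 FPKM in PLC against 7.97 in the control, and at 0.635 in 97H against 1.67. The combination library was the lowest of its line in both, at similar ratios of 0.397 and 0.379. The fitted difference was -0.91 (SE 0.36, unadjusted p = 0.0312, adjusted p = 0.334, limma), with -0.70 and -0.99 in PLC and 97H once the trends were removed. RAB24, on the same strand at the locus, was at 43.0 and 33.5 FPKM in PLC control and combination and at 11.5 and 11.4 in 97H. PRELID1, on the opposite strand, was lower in both lines, at 569 and 351 FPKM in PLC and at 153 and 118 in 97H.

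MYC split by line under the combination. It was at 43.8 FPKM in PLC, above the control of 36.0, and at 35.2 in 97H, below the control of 51.3 and the lowest of that line. The mean difference was -0.13 (SE 0.34, 95% interval -0.89 to 0.64, adjusted p = 0.935, limma), and the within-line values of 0.28 and -0.53 were 0.55 and -0.54 with the trends removed. Leaving out the 97H combination library turned the sign of the mean to 0.35.

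MNT was at 12.7 FPKM in the PLC combination library, above the 4.55 to 5.92 of the other PLC libraries, and at 3.95 in 97H, within the range of the other 97H libraries (3.17 to 4.59). MXI1 was at 5.52 in PLC and 2.63 in 97H, above both controls. MXD1 was at 3.86 in PLC and 6.58 in 97H, above the control of the first line and below that of the second. MGA was at 1.197 and 0.381, and MAX at 15.2 and 12.5, the highest level of MAX in each line. The fitted difference of MAX was 0.35 (SE 0.34, adjusted p = 0.775, limma), with its locus overlapping FNTB on the opposite strand (2.65 to 17.9 FPKM over all libraries).

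Set against each inhibitor alone, the combination left no member past the threshold, and 0% of tested genes passed against the CDK4/6 inhibitor and 0% against the XPO1 inhibitor. These comparisons share libraries with those above and are not independent of them. Against the XPO1 inhibitor MXD4 was higher by 1.18 (SE 0.45, unadjusted p = 0.0273, adjusted p = 0.882, limma), at 41.0 against 20.0 FPKM in PLC and 18.5 against 6.64 in 97H. MYC was lower by 0.54 on average (difference -0.54, SE 0.34, limma), mainly in 97H. Against the CDK4/6 inhibitor the difference of MXD4 was 0.54 and that of MXD3 -0.63 (SE 0.36, limma). MYC was at 43.8 against 21.0 in PLC and at 35.2 against 40.0 in 97H, so its mean difference of 0.42 joins opposite directions.

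The ratio of antagonist to MYC RNA within a library does not depend on a scale factor common to all genes of that library. Trends with GC content do not cancel in it, since MYC transcripts have 53.9% GC and those of the antagonists 42.7% to 61.4%. The ratio was not computed with these trends removed. The summed FPKM of MXD1, MXD3, MXD4, MXI1 and MNT was 47.8 in the Huh7 control, 2.66 times the MYC level, and 94.5 with the CDK4/6 inhibitor, 9.002 times the MYC level. In PLC the ratio was 1.31 in control, 2.32 under CDK4/6 inhibition, 0.887 under XPO1 inhibition and 1.51 in the combination. In 97H it was 0.36, 0.593, 0.333 and 0.916 in the same order. The ratio was thus above control with the CDK4/6 inhibitor and with the combination and below control with the XPO1 inhibitor in each line that has these treatments. Relative to control it changed 3.38-fold, 1.77-fold and 1.65-fold with the CDK4/6 inhibitor in Huh7, PLC and 97H, 0.677-fold and 0.924-fold with the XPO1 inhibitor in PLC and 97H, and 1.15-fold and 2.54-fold with the combination. It is a description of chosen genes and carries no test, and RNA does not measure the proteins that compete for MAX.

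The gene behind the sum differed by line. MXD4 made up 53.0% of the antagonist sum in the Huh7 control and 73.0% with the CDK4/6 inhibitor. Its share was 47.1% to 64.7% in PLC, lowest with the XPO1 inhibitor. In 97H it was 16.8% in control, where MXD1 was the most abundant antagonist, and 45.8%, 28.7% and 57.2% under CDK4/6 inhibitor, XPO1 inhibitor and combination. MYC over MAX ran from 1.24 in Huh7 with the CDK4/6 inhibitor to 5.85 in 97H with the XPO1 inhibitor. With the CDK4/6 inhibitor it was below control in each line, at 1.24 against 2.48, 1.92 against 3.69 and 3.84 against 4.46 in Huh7, PLC and 97H.

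**Figure D3:**
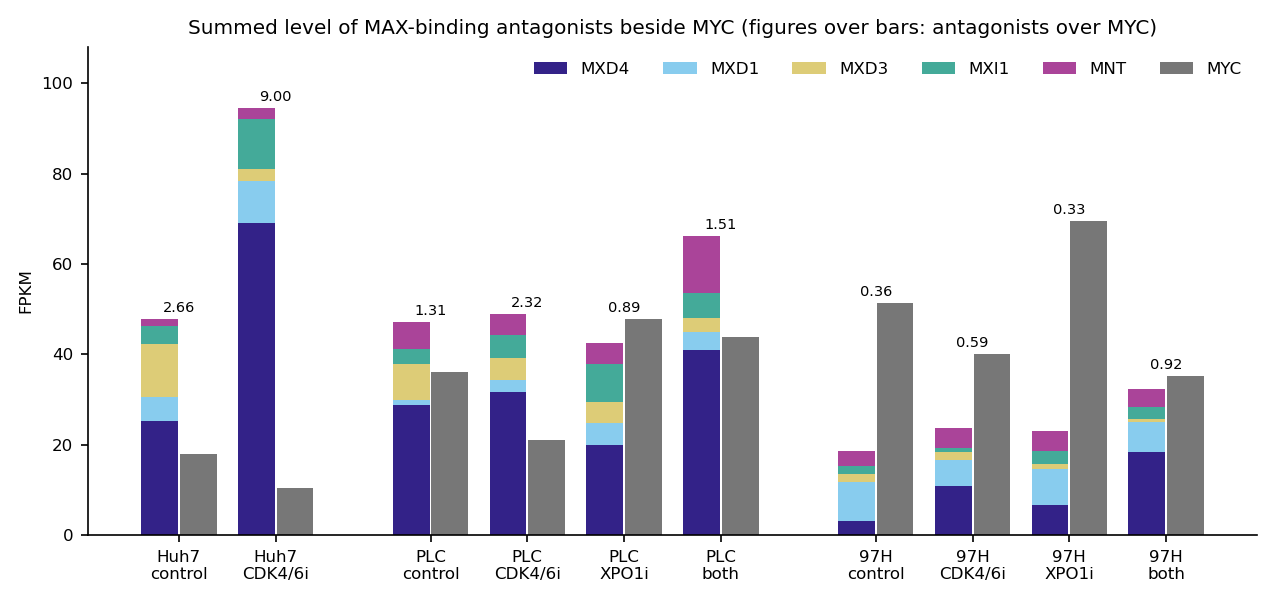
FPKM (vertical axis, linear from 0) of the antagonists MXD4, MXD1, MXD3, MXI1 and MNT as stacked bars beside that of MYC as grey bars, in each library, with the ratio of the stack to MYC printed above (2.66 and 9.002 in Huh7, 0.33 to 0.92 in 97H). Each bar is 1 library and has no error bar.

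Member levels differed between the lines, and here members passed the test. Between 97H and PLC 5 of 9 members passed, against 49.3% of all tested genes, between Huh7 and PLC 4 of 9 (28.3% of all), and between Huh7 and 97H 5 of 9 (35.2% of all). MYCN reached the filter on low values only through Huh7 and MGA only through PLC, so the filter favours a call of either in a comparison with that line. Without genes admitted through 1 of the compared lines, 4 of 8 members passed between 97H and PLC (45.4% of 9530 genes), 3 of 7 between Huh7 and PLC (25.4% of 9660) and 4 of 8 between Huh7 and 97H (31.3% of 9684). The shares among members are read against those backgrounds, since a large part of the transcriptome separates the lines. The tests hold treatment fixed and take their spread from treatments within lines. The median of all genes was -0.26 between 97H and PLC, -0.05 between Huh7 and PLC and 0.18 between Huh7 and 97H, and with median ratio scaling these were -0.005, -0.01 and -0.04. The calls split into 1900 higher and 3260 lower between 97H and PLC, and 2533 and 2292 with that scaling, and between Huh7 and 97H into 2102 and 1587, and 1725 and 2027. Every member called kept its direction under all scalings run.

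The 97H line had lower levels of MXD4, MXD3 and MXI1 than PLC. MXD4 was at 3.10 to 18.5 FPKM in 97H and at 20.0 to 41.0 in PLC, with no overlap, a difference of -1.72 (SE 0.29, adjusted p = 0.000867, limma). MXD3 was at 0.635 to 1.74 against 3.16 to 7.97, also without overlap, a difference of -1.41 (SE 0.29, adjusted p = 0.00284, limma). MXI1 was at 0.757 to 2.78 against 3.41 to 8.34, a difference of -1.13 (adjusted p = 0.0139, limma). MGA was at 0.143 to 0.406 against 0.496 to 2.78, a difference of -1.01 that is given as a description. These levels too did not overlap. MXD1 alone was higher in 97H, at 5.84 to 8.66 against 1.06 to 4.78, by 1.10 (adjusted p = 0.0139, limma). MXI1 missed the threshold when the PLC XPO1 inhibitor, the 97H CDK4/6 inhibitor or the 97H XPO1 inhibitor library was left out (adjusted p = 0.055 to 0.0662, limma). MYC was at 35.2 to 69.4 in 97H and 21.0 to 47.8 in PLC and overlapped, with a difference of 0.41 (95% interval -0.10 to 0.91, adjusted p = 0.16, limma).

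Huh7, with 2 libraries, had less MYC and more MYCN than the other lines. MYC was at 10.5 and 18.0 FPKM, below all libraries of PLC and 97H, with differences of -1.10 against PLC (SE 0.30, adjusted p = 0.0197, limma) and -1.50 against 97H (SE 0.30, adjusted p = 0.00329, limma). The call against PLC was lost without either Huh7 library (adjusted p = 0.119 and 0.193, limma). The call against 97H was lost without the treated Huh7 library (adjusted p = 0.0578, limma). MYCN was higher by 3.003 than in PLC and by 2.69 than in 97H, a description only, since the gene was tested because of its Huh7 level. Huh7 also had more MXD4 than 97H, by 2.402 (SE 0.39, adjusted p = 0.000948, limma), more MXI1, by 1.74 (adjusted p = 0.00928, limma), and more MXD3, by 1.33 (adjusted p = 0.0232, limma). The MXI1 difference was 1.01 and missed without the treated Huh7 library (adjusted p = 0.231, limma), and it was 1.29 and missed without the 97H CDK4/6 inhibitor library (adjusted p = 0.062, limma). That of MXD3 was 0.58 and missed without the Huh7 control (adjusted p = 0.438, limma). It also missed without the 97H control (0.0841), with quantile normalization (0.0542) and with no filter on low values (0.0605). Against PLC, MXD1 was higher by 1.32 (adjusted p = 0.0345, limma) and MNT lower, with a difference of -1.17 (adjusted p = 0.0449, limma). The MXD1 call was lost in 7 of 18 alternatives, namely without either Huh7 library, the PLC control or the CDK4/6 inhibitor library of PLC or 97H, with no filter and with no replicate block (adjusted p = 0.0514 to 0.355, limma). The MNT call was lost in 9 of 18, namely without either Huh7 library, either control of the other lines, either combination library or the 97H CDK4/6 inhibitor library, with no filter and with median ratio scaling (adjusted p = 0.0538 to 0.334, limma). In a fit that leaves 1 Huh7 library, that library is assumed to vary like the others.

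**Figure D4:**
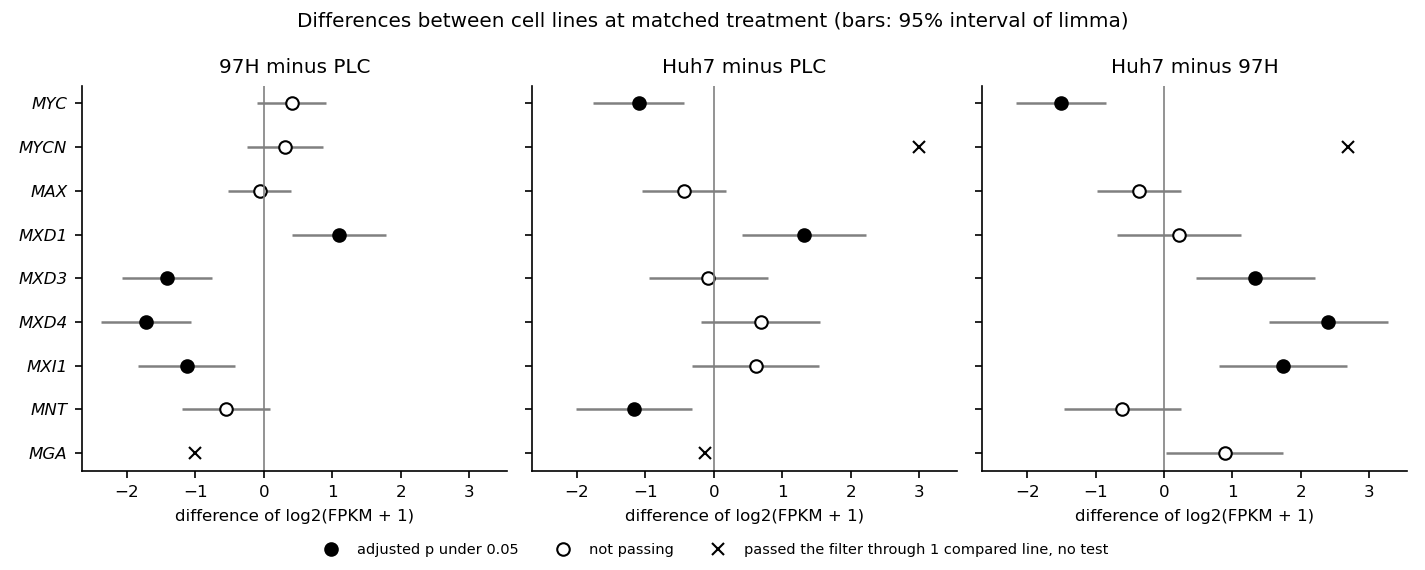
Difference of log2(FPKM + 1) between lines at matched treatment (horizontal axes) for each member, with limma's 95% interval, filled where the adjusted p is under 0.05, and crosses, with no interval, for members that passed the filter only through 1 of the compared lines. MXD4, MXD3 and MXI1 lie below 0 in 97H against PLC, where MGA is a cross with no test. MYCN, also a cross, lies at 3.003 and 2.69 in Huh7 against the other lines.

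The textbook targets of MYC were examined as a list of 47 symbols of activated genes (MINA and RIOX2 are symbols of the same gene), of which 43 were tested, and 14 repressed genes, all tested. The lists come from general knowledge of MYC, and members of the first are also growth genes under other controls. They were chosen with earlier results of these data known, so their counts are descriptions and not independent support. With the combination the activated genes had a median of -0.61, against 0.07 for all tested genes, with 39 of 43 below 0 and 18 with an unadjusted p under 0.05 (12.4% of all genes). Only FBL, IMPDH2 and PHB2 passed and fell, 3 of 43 beside 0.792% of all genes. With the CDK4/6 inhibitor 41 of 43 were below 0 with a median of -0.51 and none passed, while 17 had an unadjusted p under 0.05 (8.8% of all genes). With the XPO1 inhibitor the median was -0.22, with 28 below 0 and 5 with an unadjusted p under 0.05 in that direction (2.46% of all genes in either direction), and it ran from -0.44 without the PLC control to -0.14 without the 97H control. The median of this list and the level of MYC did not have the same sign with the XPO1 inhibitor.

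FBL, the methyltransferase of ribosomal RNA, was at 208.5 FPKM in the PLC control and 55.2 with the combination, and at 258.7 and 77.2 in 97H, a fall of 1.82 (difference -1.82, adjusted p = 0.0345, limma). IMPDH2, an enzyme of guanine nucleotide synthesis, went from 205.8 to 60.3 in PLC and from 75.6 to 19.4 in 97H (difference -1.83, adjusted p = 0.0345, limma). PHB2, a mitochondrial inner membrane scaffold, went from 231.2 to 45.3 and from 122.5 to 41.9 (difference -1.93, adjusted p = 0.0345, limma). In each of the pair of lines the combination library was the lowest for these 3 genes. Leaving out the PLC control, the PLC combination or the 97H combination left 0 activated genes called. The count was 5 without the 97H control and 8 with the GC content and length trends removed, and it was 7 with Huh7 in the fit. It was 0 with no filter on low values, with a single prior variance and with no replicate block.

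By line, the activated genes had medians with the CDK4/6 inhibitor of -0.88, -0.34 and -0.46 (Huh7, PLC and 97H), beside medians of all genes of -0.04, 0.18 and -0.06. The counts below 0 given above are of differences fitted over the lines. Within the lines 41, 24 and 37 of 43 genes were below 0, so in PLC 19 were above 0. The PLC value was -0.06 after removal of the trends. With the XPO1 inhibitor the list stood at -0.23 in PLC and -0.34 in 97H, lines in which MYC was 1.33-fold and 1.35-fold control. With the combination it stood at -0.58 in PLC, where MYC was 1.22-fold control, and at -0.85 in 97H, where MYC was 0.686-fold control. Below 0 were 24 of 43 genes in PLC and 37 in 97H with the XPO1 inhibitor, and 30 and 42 with the combination. The antagonist ratio was above control in PLC and 97H with the combination (1.15-fold and 2.54-fold). With the XPO1 inhibitor it was below control in both lines (0.677-fold and 0.924-fold), while the list medians were below 0 there too. A link between the ratio and the list was not tested.

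Of the repressed genes, CDKN1A, an inhibitor of cyclin-dependent kinases that MYC holds down with ZBTB17 and that p53 activates, rose with the combination by 2.19 (adjusted p = 0.0461, limma). It was the 1 of 14 that passed, beside 0.792% of all genes. CDKN1A no longer passed with no filter on low values, with a single prior variance or with no replicate block. The median of the list was 0.39 with the combination, 0.26 with the CDK4/6 inhibitor and 0.41 with the XPO1 inhibitor, and 8, 10 and 8 of 14 were above 0. The medians of all tested genes were 0.071, 0.033 and 0.095, and their share above 0 was not computed. Leaving out 1 library moved these medians, from 0.17 without the 97H control to 0.58 without the PLC combination for the combination, from 0.16 without the PLC CDK4/6 inhibitor library to 0.48 without the 97H control for the CDK4/6 inhibitor, and from 0.14 without the PLC control to 0.47 without the 97H XPO1 inhibitor library for the XPO1 inhibitor. The CDKN1A call was lost without the PLC control, the PLC combination or the 97H combination library. By line, the list stood at 0.503, 0.169 and 0.04 with the CDK4/6 inhibitor (Huh7, PLC and 97H), beside -0.044, 0.182 and -0.061 for all genes. In PLC and 97H it stood at 0.197 and 0.209 with the XPO1 inhibitor, beside 0.144 and -0.022. With the combination it stood at 0.256 and 0.419 there, beside 0.096 and -0.011.

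**Figure D5:**
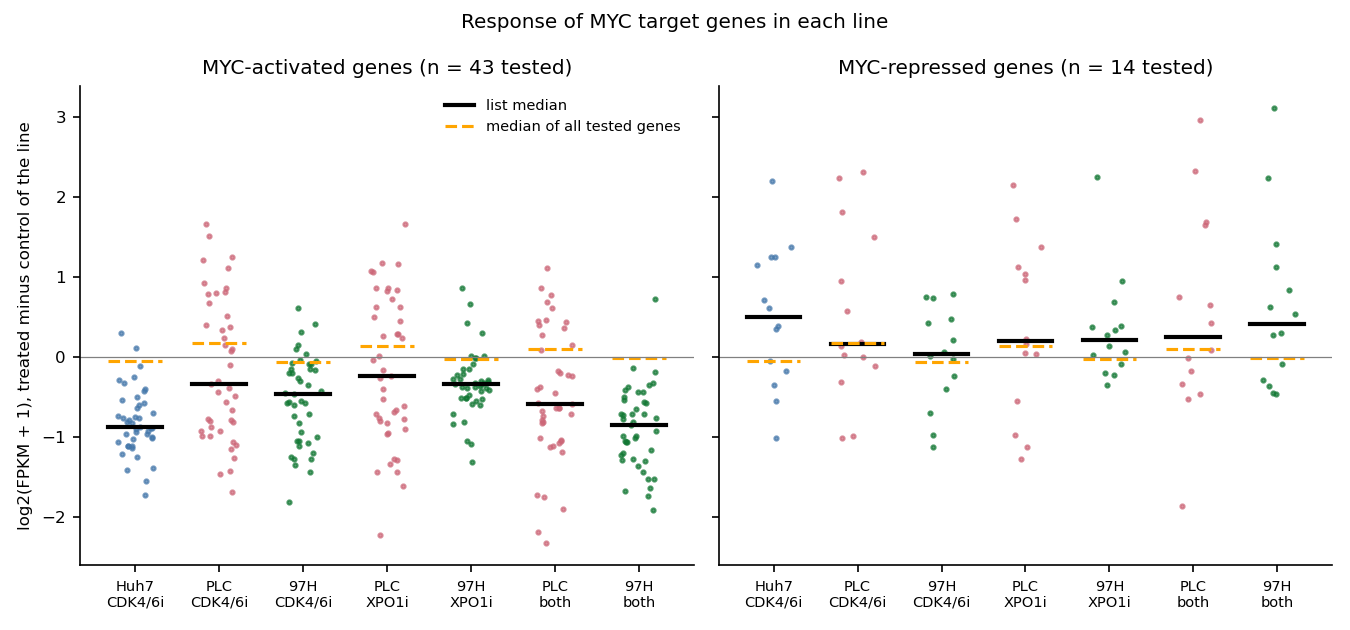
Difference of log2(FPKM + 1) from the control of the same line (vertical axis) for each tested MYC-activated gene (43, left) and MYC-repressed gene (14, right), by line and treatment, with the list median (black) and the median of all tested genes (dashed). The black line of the activated genes lies below the dashed line in all 7 pairs of libraries, from -0.23 to -0.88, and the points of PLC spread more widely than those of Huh7 and 97H.

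Cofactors of the network did not pass the test between treatments. Among 10 MYC coactivators 9 were below 0 with the combination (median -0.36), led by the ATPases RUVBL2 (-0.97, adjusted p = 0.174, limma) and RUVBL1 (-0.95, adjusted p = 0.238, limma). RUVBL2 was at 88.4 and 41.7 FPKM in PLC control and combination and at 78.4 and 42.1 in 97H. Among 10 SIN3 and histone deacetylase corepressors used by MXD proteins and MNT the median was -0.13, with SAP30 at -0.92 (adjusted p = 0.336, limma). Among 10 tested partners of MGA in PRC1.6 the median was -0.40, with TFDP1 at -0.83 and L3MBTL2 at -0.77. Among 10 tested genes of MYC turnover the median was -0.30, with AURKA, a kinase that stabilises MYCN protein, at -1.05 (adjusted p = 0.371, limma). The medians of these lists depended on single libraries. Without the PLC control and without the 97H control they were -0.195 and -0.71 for the coactivators, -0.538 and 0.323 for the corepressors and -0.866 and 0.116 for the turnover genes. That of the MGA partners was -0.234 without the PLC combination and -0.548 without the 97H combination. The number called was 0 in each of these lists for the 3 treatments against control, beside 0.792% of all genes with the combination.

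The parallel MLX arm of the network, which senses glucose, had 3 tested genes and 2 tested targets. MYCL, another MYC paralog listed with it, was at 3.60 FPKM in the PLC control and 10.9 with the combination, and under 0.5 in 97H. TXNIP, the classical glucose-induced target, was at 1.08 FPKM in the 97H control, 1.83 under CDK4/6 inhibition, 22.9 under XPO1 inhibition and 35.5 in the combination. In PLC it was at or under 0.0864 in all libraries. ARRDC4, its relative, was at 1.03, 0.788, 3.04 and 6.46 in 97H in the same order. Neither passed in a comparison of treatments (combination against control, adjusted p = 0.424 and 0.437, limma).

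Between lines some cofactors passed. In 97H against PLC these were 2 of 10 coactivators, 4 of 10 corepressors, 6 of 10 partners of MGA and 6 of 10 turnover genes, beside 49.3% of all genes. Against PLC, Huh7 had 3, 0, 1 and 5 of 10 called in the same order (28.3% of all genes), and against 97H 3, 1, 1 and 3 (35.2% of all genes). TRRAP, the scaffold of MYC's acetyltransferase complexes, was higher in 97H than in PLC by 1.61, and lower were the MGA partners TFDP1 (-1.27), E2F6 (-0.86) and PCGF6 (-0.88). The corepressor genes ING2 (0.92), RBBP7 (-1.29) and SIN3A (-0.63), the turnover gene AURKA (-1.58) and the coactivator ACTL6A (1.29) also passed between 97H and PLC. Huh7 had more SKP2, a ubiquitin ligase subunit that acts on MYC, than 97H (3.65) and more HDAC2 (1.46), and less KAT2A (-1.65) and MLX (-1.06). It had less KAT5 (-1.42), RING1 (-1.43) and PPP2R5A (-1.47) than PLC. MLXIP (1.28) and TXNIP (3.02) were higher in 97H than in PLC. Of 43 activated targets of MYC, 4 were called higher and 12 lower in 97H than in PLC (49.3% of all genes). The list median was -0.305, beside -0.259 for all genes. Huh7 had 0 higher and 10 lower than PLC (28.3% of all genes). ODC1 (-1.82), NPM1 (-1.60) and IMPDH2 (-1.19) were lower in 97H than in PLC and NOP16 (-1.72) was lower in Huh7 than in PLC. Of 14 repressed genes 6 were called higher and 3 lower in 97H than in PLC, with CDKN1C counted. Huh7 had 9 higher and 0 lower than PLC, with COL1A2 counted. FTH1 (2.42) was higher in 97H than in PLC and NDRG1 (2.72) higher in Huh7 than in PLC. The hepatocyte genes SERPINA1 (-8.15) and APOB (-5.09) were lower in 97H than in PLC, and FGB (7.21) and TTR (8.14) higher in Huh7 than in 97H. These passed at an adjusted p of 0.045 or less (limma). MYCL reached the filter only through PLC, ARRDC4 and CDKN1C only through 97H and COL1A2 only through Huh7, so their differences between lines are given with no test: 97H against PLC stood at -2.24 for MYCL, 1.54 for ARRDC4 and 3.38 for CDKN1C, and Huh7 against PLC at 5.12 for COL1A2.

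With the mean of each line removed, the genes whose profile over the 10 libraries was most like that of MYC were MAP3K14 (Pearson r = 0.941), ZSCAN25 (0.925), PACSIN3 (0.923), IRF2BPL (0.916) and CBX2 (0.916). MAP3K14, for one, was at 7.502, 4.38, 8.94 and 10.6 FPKM in PLC control, CDK4/6 inhibitor, XPO1 inhibitor and combination. For MXD4 they were MINDY1 (0.985), MAN1B1 (0.983), RABAC1 (0.982), GNAI2 (0.981) and TMEM187 (0.978). TMEM187 was at 1.43, 3.48, 3.11 and 6.72 FPKM in 97H in the same order. These are the highest of 10477 genes and are descriptions, and the points share libraries and lines. Among the members themselves, again over 10 libraries, r was largest in size for MAX and MXD1 (0.810) and for MXD3 and MXI1 (-0.800). Next came MXD1 and MXI1 (0.769), MAX and MXD3 (-0.74), MAX and MXI1 (0.677) and MXD3 and MXD4 (-0.652). Then came MXD1 and MXD3 (-0.649), MYCN and MXD3 (0.619), MXD1 and MGA (0.582) and MYC and MXD4 (-0.571). No r is given with the trends in GC content and length removed. Transcripts of MXD1 and MXI1 have 42.7% and 43.7% GC, and those of MXD3 61.3%. The part of these trends in the r values was not tested.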

How the data were processed

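Total RNA of 3 liver cancer lines was made into 10 TruSeq libraries, per the labels' protocols. Per the submitters' processing notes, CASAVA 1.8.2, STAR 2.4.2g1, featureCounts of Subread and GRCh38 were used. How the deposited FPKM values were derived, and with which annotation, was not stated in the labels. The deposited table holds the authors' FPKM for 20030 genes, 27 of which carry a date in place of a name and were left so. Whole reads could not be recovered, so no count model was used, and precision is limited by 1 library per line and treatment.

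Differences of log2(FPKM + 1) were fitted in R 4.3.3 by limma 3.58.1 (two-sided, eBayes with trend) to the 10477 genes that averaged 1 FPKM or more, with Benjamini-Hochberg adjustment over them. The pseudocount of 1 shrinks differences of low genes. Line was the block. All 10 libraries were used for the CDK4/6 inhibitor against control and, with treatment as the block, between lines (4 residual degrees of freedom). For the other comparisons PLC and 97H entered, with 8 libraries and 3 residual degrees of freedom. Pairing by line comes from the labels. Across genes, how far a control library and its CDK4/6 inhibitor library lay from the means of their groups correlated at 0.901, 0.665 and 0.818 in Huh7, PLC and 97H. Whether cultures of a line were separate is not stated, so p-values measure the spread between these libraries. The fit was tested on simulated data with less spread than these libraries and no trend in GC content. That run therefore does not show how the fit performs on the real values. Alternatives were the removal of trends in transcript GC content and length (GENCODE 29, splines with 5 degrees of freedom), a pseudocount of 0.1, other filters and scalings, a single prior variance, no block and leaving out libraries. The members and lists were chosen with earlier results of these data known. Named are all members, per list up to 4 genes called in any comparison or else those with the smallest p in the combination against control, and the 5 genes most like MYC and MXD4. A gene that this rule names is not reported here.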

Additional observations from a re-analysis of the deposited data

Results flagged for a closer look

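MXD4 with the XPO1 inhibitor lay on opposite sides of the control in the 2 lines that have this treatment, each by at least 0.5 on the scale of log2(FPKM + 1). The difference was -0.506 in PLC and 0.898 in 97H. With 1 library per line and treatment the difference between the lines was not tested. Removing the trends in GC content and length gave 0.041 and 0.72, and a pseudocount of 0.1 gave -0.525 and 1.075. MXD4 transcripts have 57.6% GC, and over all genes the differences with the XPO1 inhibitor had a Spearman rho with GC content of -0.708 for PLC and 0.464 for 97H.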

How the results depend on the processing

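Over 47 differences of members and 834 alternative values, 782 kept their direction and side of the threshold, 31 no longer passed, 1 newly passed and 20, of 13 differences, changed sign. Between treatments no member was called in any alternative except MXD4 with the combination when the trends in GC content and length were removed with the replicate block (1 member called). That fit called 510 genes with the combination in place of 83, and put MYC with the combination at 0.005. The fit with no replicate block called 0 genes there. With the other set of libraries MXI1 with the CDK4/6 inhibitor was at -0.145, and MYCN with the XPO1 inhibitor and the combination at -0.049 and -0.087. MNT with the XPO1 inhibitor was at -0.122 with quantile normalization and -0.073 with median ratio scaling. Members called between Huh7 and PLC were 2 without a filter on low values.

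Leaving out 1 library in turn gave ranges that cross 0. For the CDK4/6 inhibitor these were MAX (-0.006 to 0.199), MXI1 (-0.145 to 0.742) and MGA (-0.187 to 0.509), and for the XPO1 inhibitor MXD1 (-0.064 to 1.44), MXD4 (-0.563 to 0.955), MNT (-0.328 to 0.43) and MGA (-0.018 to 1.209). For the combination they were MYC (-0.601 to 0.349), MXD1 (-0.309 to 1.195) and MGA (-0.349 to 0.878), and for the combination against the CDK4/6 inhibitor MYC (-0.052 to 0.898). Members called ran from 3 to 6 between 97H and PLC, 1 to 4 between Huh7 and PLC and 3 to 6 between Huh7 and 97H, and genes called with the combination from 0 to 184. The cause was not tested. Depth is unknown, so the counting error of the low members MYCN and MGA could not be given.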
